A study of Mus musculus with 12 samples.

Results

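The transcriptome of the whole dorsal root ganglion was compared between mice with and without sciatic nerve injury, using the input RNA of a ribosome-tagging (RiboTag) experiment. The comparison covers 6 of the 12 samples of the series, 3 injured and 3 uninjured input samples, chosen by their labels. All 6 came from mice of the genotype RPL22HA+/+;Advillin-Cre+, in which Advillin-Cre switches on an HA-tagged ribosomal protein in peripheral sensory neurons, so injured and uninjured animals carried the same alleles. The other 6 samples are RNA recovered with an anti-HA antibody (IP) from ganglia of the same genotype and conditions. Input is named total RNA in the labels, although its extraction text is that of the immunoprecipitation. The sources used here do not give the time after injury, the animals' age or sex, or whether animals were pooled.

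The dorsal root ganglion holds the cell bodies of sensory neurons, the satellite glia that wrap them, Schwann cells along their axons, and vascular, connective tissue and immune cells. After their axons are damaged in the sciatic nerve, these neurons are known to switch from transmission towards a growth programme, while glia and macrophages in the ganglion react as well. Input RNA mixes all of these cells. A difference in it can come from fewer or more cells of a type or from less or more RNA per cell, and these cannot be told apart.

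Libraries were long-read nanopore cDNA libraries, and the values are estimated counts per Ensembl mouse transcript. Of 101744 transcripts in the table, 32034 had a count in at least 1 of the 2 input groups, 20962 of them in both. The table lists transcript IDs without gene names, and 0 of them matched the gene tables used here. Values are therefore given per transcript, and gene sums, pathway lists and the markers that would check the cell types of the ganglion were not analysed here.

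The 3 samples of each group held nearly equal totals, which differed by 0.0374% of their mean in uninjured and 0.0806% in injured input. Totals ran from 1584104 to 1685756 counts per sample. Whether the 3 are separate animals is not stated, so p-values below measure only the spread between these samples, which may be technical. The main comparison summed the 3 samples of a group and treated each group as 1 sample. Levels are CPM (counts per 1000000 counts) after scaling of the 2 input groups to each other with TMM factors, and 6366 transcripts reaching 10 scaled CPM in the higher group were compared.

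After injury, 788 of the 6366 compared transcripts were higher and 301 were lower. A transcript was counted where the groups differed at least 2-fold, where 1 lay outside the 95% counting interval of the fold, and where every sample of the higher group lay above every sample of the lower one. The counted transcripts made up 17.1% of those compared, 12.4% higher and 4.73% lower. Higher ones thus made up 72.4% of the counted transcripts. At 4-fold or more they made up 80.3%, with 224 higher against 55 lower, and at 10-fold or more 74.2%, with 69 against 24.

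This balance depended on how the groups were scaled. With library totals alone, 595 transcripts were higher and 470 lower, so that higher ones made up 55.9%. With DESeq2 size factors they made up 67.1%. The median log2 fold of all compared transcripts was 0.01 with TMM factors, -0.18 with library totals and -0.06 with DESeq2 size factors. Among transcripts at 100 CPM or more in the higher group, 244 were higher and 29 lower with TMM factors, 182 and 46 with library totals, and 223 and 33 with DESeq2 size factors.

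How the counted transcripts spread over levels depended on which level was used to sort them. Sorted by the level in the higher group, 54 of 256 transcripts at 1000 scaled CPM or more were higher and 0 were lower. Between 100 and 1000 CPM, 190 of 972 were higher and 29 lower, and between 10 and 20 CPM 244 of 2556 were higher and 143 lower. The share of higher transcripts was thus 9.55% in the lowest and 21.1% in the highest class. This sorting takes in the difference itself, since a transcript that is higher after injury is placed by its injured level.

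Sorted by the uninjured level, which the injured counts do not enter, the higher transcripts did not rise in share up to the top class. They were 6.20% of 2176 transcripts between 10 and 20 CPM, 14.2% of 846 between 100 and 1000 CPM and 5.80% of 207 at 1000 CPM or more. In the 2 lower classes the lower transcripts were the more frequent, with 143 against 135 between 10 and 20 CPM and 106 against 93 between 20 and 50 CPM. Higher ones led above that, with 120 against 29 between 100 and 1000 CPM and 12 against 0 at 1000 CPM or more. The uninjured counts enter both this level and the fold, so this sorting is not free of the difference either. The median log2 fold was -0.11 between 10 and 20 CPM and -0.08 between 20 and 50 CPM. In the same classes by the higher group it was 0.02 and 0.03. The 372 counted transcripts under 10 CPM in uninjured input were all higher, as the 10 CPM minimum leaves no room there for a lower one.

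Sorted by the geometric mean of both groups, 23.4% were higher under 10 CPM, 8.17% between 10 and 20 CPM, 16.9% between 100 and 1000 CPM and 13.7% at 1000 CPM or more. Lower ones were 4.32%, 2.14% and 0% in the last 3 of these classes. The last 2 sortings were chosen after the values of the first were seen. At 100 CPM or more the higher transcripts outnumbered the lower ones under all 3, with 244 against 29, 132 against 29 and 172 against 18. These are not 3 separate checks. The 132 and the 172 are among the 244, the 29 are the same transcripts both times, and the 18 are among them. By the uninjured level, higher against lower at 100 CPM or more was 101 against 46 with library totals and 124 against 33 with DESeq2 size factors. The 0 lower transcripts at 1000 CPM or more in uninjured input became 2 and 1 under these scalings. Between 50 and 100 CPM by the uninjured level, 56 higher against 23 lower became 38 against 42 with library totals.

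**Figure D1:**
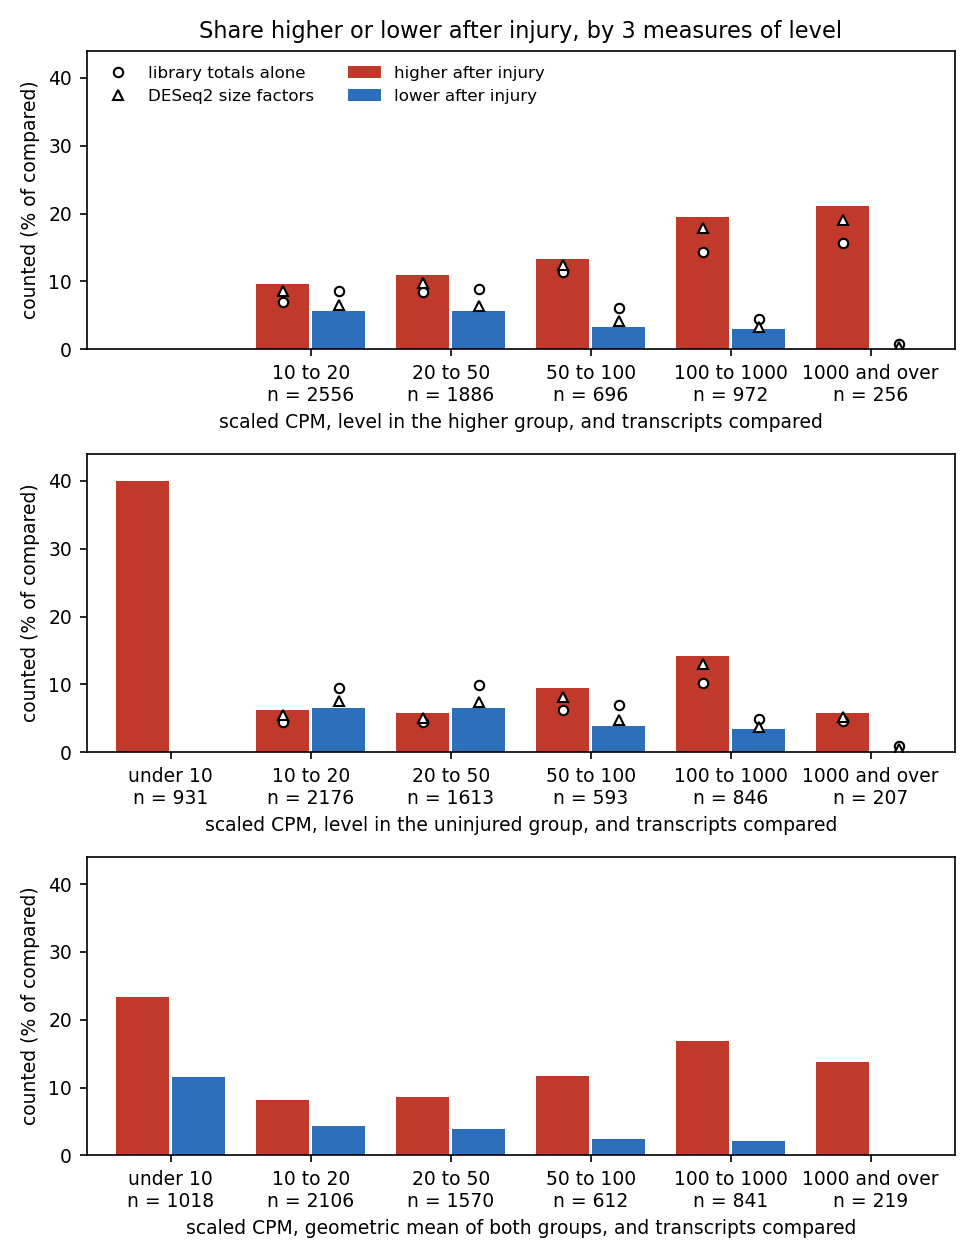
Bars give the percentage of compared input transcripts counted as higher (red) or lower (blue) after injury, in classes of scaled CPM in the higher group (top), in the uninjured group (middle) or by the geometric mean of both (bottom), with the number compared under each. Open circles and triangles give library totals alone and DESeq2 size factors, in the top and middle panels at 10 CPM or more. The red share rises to 21.1% in the top panel but is 5.80% in the most abundant class of the middle panel. The blue bar is at 0% in the most abundant class of all 3, which the top panel fixes for the others. A lower transcript is placed by its uninjured level in the top panel too, and the geometric mean cannot exceed the higher level.

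Most abundant transcripts differed little in level. In the class of 1000 CPM or more in the higher group, 178 of 256 transcripts differed by less than 1.5-fold in either direction, and the quartiles of the log2 folds ran from -0.21 to 0.77. The furthest any of them lay below the uninjured level was 1.92-fold. The median log2 fold in each of the 5 classes by the higher group lay between -0.01 and 0.03 with TMM factors, which centre most folds near 0. With library totals alone these medians lay between -0.22 and -0.17.

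**Figure D2:**
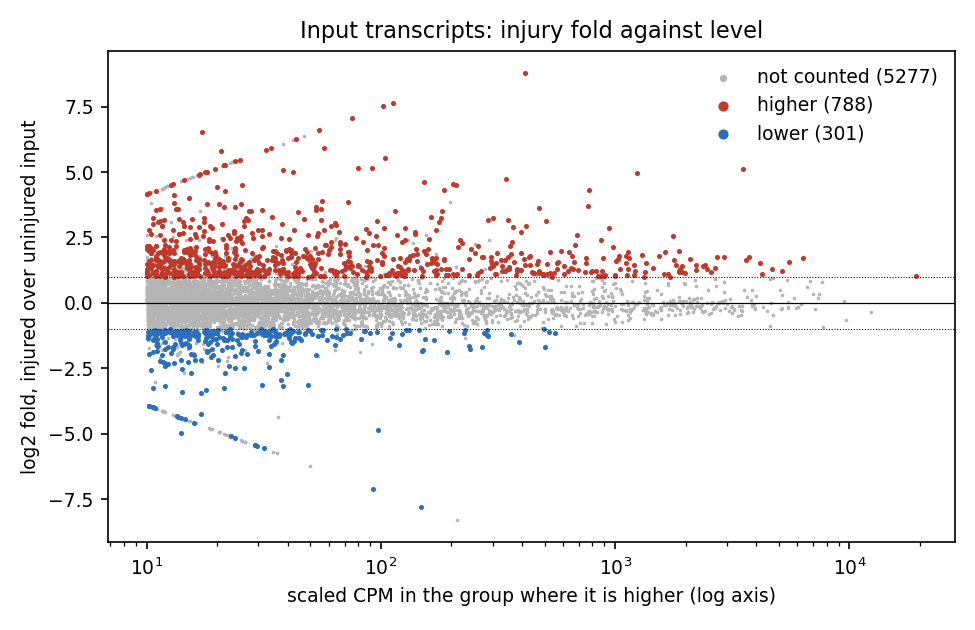
Each point is 1 of the 6366 compared input transcripts, placed by its scaled CPM in the higher group (log axis) and its log2 fold, injured over uninjured. Red points are the 788 higher and blue points the 301 lower transcripts, dotted lines mark 2-fold, and the slanting rows of points are transcripts at 0 counts in one group, whose fold was computed against 3 counts.

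The higher transcripts came to hold a large part of the input RNA. They made up 8.16% of all counts in uninjured and 20.3% in injured input. The 3 uninjured samples gave 8.16%, 8.22% and 8.10%, and each of the 3 injured samples gave 20.3%. The 54 transcripts at 1000 CPM or more carried most of this, with 5.34% of the uninjured and 12.7% of the injured counts. The 301 lower transcripts moved far less RNA, 1.5% of the uninjured and 0.509% of the injured counts. The 5277 compared but uncounted transcripts went from 86.1% to 75.3%. The higher transcripts were picked for this difference, so these shares describe its size and do not test it. They hold for the set counted with TMM factors. With library totals alone 595 transcripts were higher, 40 of them at 1000 CPM or more, and their shares were not computed.

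Input RNA was spread over transcripts about equally in both conditions. The 100 most abundant transcripts of a sample held 38% to 38.2% of its counts in uninjured and 37.1% to 37.2% in injured input. Of the 100 most abundant transcripts in uninjured input, 78 were also among the top 100 after injury, 3 were counted as higher and 0 as lower, which became 1 and 2 with library totals alone. The other 22 places were taken by transcripts that had ranked from 103 to 1040 in uninjured input, and 16 of these 22 were counted as higher under each scaling tried. They were picked by a rise in rank, which favours higher calls, so this count is not separate support. With TMM factors, 12.4% of all compared transcripts were higher, and 21.1% of those at 1000 CPM or more in the higher group. The ranks are by counts and are not corrected for transcript length.

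The most abundant transcript of injured input lay at the 2-fold bound. It had 17053, 17150 and 16836 counts in the uninjured samples and 28801, 28886 and 28975 in the injured ones. Both groups were tight and far apart, and the ratio with TMM factors was 2.02 (95% counting interval 2.00 to 2.05). With library totals alone it was 1.81 and with DESeq2 size factors 1.94, both short of 2-fold. It made up 1.01% of uninjured and 1.82% of injured counts and moved from rank 3 to rank 1. The most abundant transcript of uninjured input had 22230, 22110 and 21905 counts there and 14597, 14436 and 14436 after injury. It was 1.28-fold lower, short of the 2-fold bound, and moved to rank 2. The second in uninjured input was 1.57-fold lower and moved to rank 11. These transcripts were picked for their abundance.

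Folds among the 54 abundant higher transcripts were mostly moderate. They ran from 2.00 to 34.3 with a median of 2.73, and 3 reached 4-fold. The first of these 3 had 206, 174 and 164 counts in the uninjured samples and 5237, 5235 and 5229 in the injured ones. It was 34.3-fold higher (31.5 to 37.5) and moved from rank 1040 to rank 45. The second had 80, 69.1 and 65 counts in the uninjured samples, against 1854, 1831 and 1900 in the injured input, 31.1-fold higher (27.1 to 35.8). The third had 557, 527 and 531 against 2649, 2654 and 2649 counts, 5.87-fold higher (5.56 to 6.20). No sample of one group came near those of the other in any of the 3. In the IP, the first had 2, 1 and 2 counts without injury and 39, 36 and 46 with it. The second had 0 in each uninjured IP sample and 4, 10 and 8 in the injured ones.

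Among counted transcripts with at least 100 counts in the higher group and with samples that agreed within counting noise in both input groups, 425 were higher and 109 lower, and these were ranked by fold. ENSMUST00000054599.8 led the higher ones. Counts were 2, 2 and 1 in the uninjured samples and 581, 669 and 593 in the injured ones. All 3 uninjured samples were near 0 and all 3 injured samples far above them, at rank 481 by counts. The level was 0.934 ± 0.323 CPM in uninjured and 411 ± 31.5 in injured input (SD, n = 3 in each). The fold was 439.6, with a 95% counting interval of 188 to 1355. In edgeR's quasi-likelihood test its adjusted p was 3.93e-07, and over 6 fits that took the samples as replicates the largest adjusted p was 0.0409 (limma-voom). The ranking used the same samples as the fits, so the p-values of the named transcripts are not separate support. In the IP its counts were 1, 2 and 0 without injury and 19, 19 and 18 with it, so it was higher in both fractions.

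ENSMUST00000165335.8 was second, and ENSMUST00000030940.14 led the lower ones. The first had 0 counts in each uninjured sample and 171, 173 and 160 in the injured ones. With 3 counts taken as the most a group count of 0 allows, it was at least 200.3-fold higher. The other had 164, 168 and 160 counts in the uninjured samples and 0 in each injured one. It was 137.9-fold lower against 3 counts, with an interval that began at 112. Each was thus found in every sample of one condition and in no sample of the other. Their adjusted p in edgeR's quasi-likelihood test was 2.34e-05 and 3.09e-05. The largest over the 6 fits was 0.00857 and 0.0105, both in edgeR with the replicate number as a block.

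The counts of this pair complemented each other, a pattern already known from earlier results of these data and not independent support. Sample by sample, their sum was 164, 168 and 160 in uninjured and 171, 173 and 160 in injured input, so the sums of the conditions overlapped. The IP showed no such switch. Of the higher transcript the uninjured IP samples had 267, 94.3 and 247 counts, and of the lower one 244, 391 and 250, with sums of 511, 485 and 497. After injury the sums were 338, 228 and 345. Of the injured IP samples, the first held both transcripts, the second ENSMUST00000165335.8 alone and the third ENSMUST00000030940.14 alone. Whether the pair shares a gene or sequence was not tested.

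ENSMUST00000168828.3 was the second of the lower transcripts. It had 54, 51 and 50.4 counts in the uninjured samples and 0 in each injured one, at least 43.3-fold lower. The uninjured samples were tight at 29.0 ± 1.07 CPM (SD, n = 3). Its adjusted p was 0.000260 in edgeR's quasi-likelihood test and at most 0.0243 over the 6 fits, in edgeR with the replicate block. All 6 IP samples held 0 counts of it.

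The 10 leading transcripts of each direction differed in size and level. The higher 10 were at least 34.3-fold higher, and 4 of them had 0 uninjured counts. They reached 145 to 15702 summed counts in injured input, from 0 to 545 in uninjured. The lower 10 were at least 4.13-fold lower, 4 of them with 0 injured counts, and started from 101 to 493 summed counts. Of the higher 10, 7 passed an adjusted p of 0.05 in each of the 6 fits, and so did 7 of the lower 10. All were chosen from the same samples by fold, lack of overlap and agreement, which favours small p-values, so this is not separate support. In the IP, 5 of the higher 10 were higher after injury, with a counting interval that left out 1 and samples that did not overlap. Another 2 had intervals below 1 but overlapping samples, 2 had intervals that held 1, and 1 had no counts. Of the lower 10, none was lower in the IP by these criteria. Their IP intervals held 1 in 5, 1 had an interval below 1 but overlapping samples, and 4 had no counts.

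**Figure D3:**
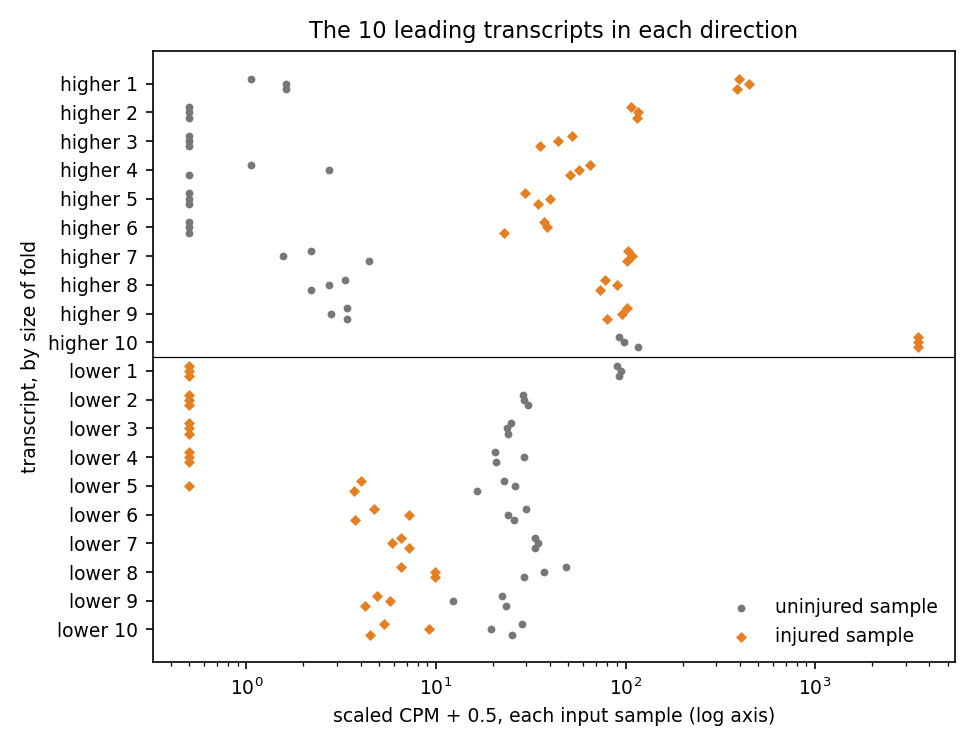
Each row is 1 of the 10 leading higher (top) or lower (bottom) transcripts, and each point is 1 input sample, at its scaled CPM plus 0.5 on a log axis (grey circles uninjured, orange diamonds injured). The groups do not overlap in any row, a condition of the choice, and 1 of the higher transcripts reaches a level above 1000 while all lower ones lie under 100.

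Lower calls also rested on less even samples. The 3 samples agreed within counting noise, in both groups, in 83.5% of the 788 higher transcripts and in 65.1% of the 301 lower ones, against 79.5% of all compared transcripts. The 3 most abundant of the lower transcripts, with 2677 to 2971 summed counts in uninjured input, did not agree in this way. The first of them had 855, 1000 and 1115 counts in the uninjured samples and 358, 200 and 560 in the injured ones, 2.23-fold lower (95% counting interval 2.08 to 2.39). Among transcripts with agreeing samples, 658 were higher and 196 lower.

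Some transcripts had counts in only 1 condition. In 6018 transcripts counts were limited to uninjured and in 5054 to injured input, mostly at very low levels. At least 10 counts were reached by 579 and 453 of them, and at least 100 by 26 and 17. The 3 samples of the group agreed within counting noise in only 4 of the 26 and 4 of the 17. Among the counted transcripts, 21 of the 788 higher ones had 0 uninjured counts and 18 of the 301 lower ones had 0 injured counts. A group count of 0 allows up to 3 counts, worth 0.560 CPM in uninjured and 0.668 CPM in injured input.

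The differences between conditions can be set beside the spread between single samples. That spread may be technical, and whether it covers the spread between animals is not known. Any injured sample against any uninjured one differed at least 2-fold in 24.5% to 25.1% of the compared transcripts, and 2 samples of the same group in 8.97% to 10.2%. At 10 to 20 CPM these shares were 26.8% to 27.9% and 14.2% to 16.6%. At 1000 CPM or more they were 20.3% to 21.1% and 0% to 0.781%. The difference between conditions therefore exceeded that between these samples of a group at every level, and by most where counts were high. The median spread within a group was 1.24 to 1.58 times counting noise over the 5 classes and both groups.

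**Figure D4:**
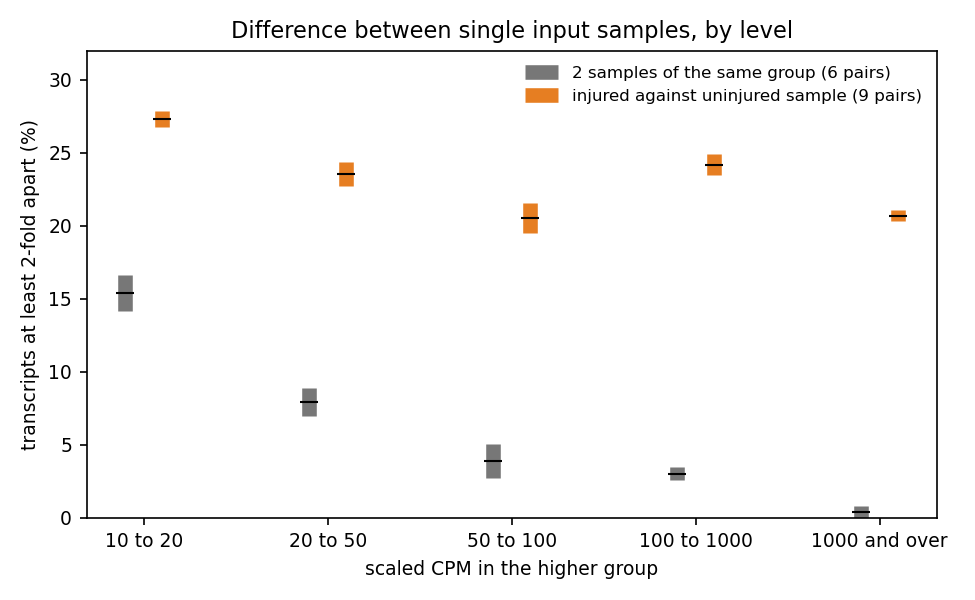
Blocks span the lowest to highest percentage of compared input transcripts at least 2-fold apart between 2 single samples, in 5 classes of scaled CPM in the higher group. Grey blocks are the 6 pairs within a group and orange blocks the 9 injured-against-uninjured pairs. The grey blocks drop from 14.2% to 16.6% in the lowest class to under 0.8% in the highest, while the orange blocks stay between 19.5% and 27.9%.

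Taking the 3 samples of a group as replicates, edgeR's quasi-likelihood test called 1932 of 8054 tested transcripts at an adjusted p under 0.05, 24% of those tested, with 1101 higher and 831 lower. Over a wider set of small differences the balance was thus closer, and 1017 of the 1932 calls were under 2-fold. Of the edgeR calls of at least 2-fold, 700 were higher and 215 lower, or 76.5% higher. At 1000 CPM or more edgeR called 108 transcripts higher and 105 lower at any size, and 51 higher and 0 lower at 2-fold or more. Of the 1089 transcripts counted by the summed rule, 855 were called in the same direction by edgeR, which is 78.5% of the summed and 44.3% of the edgeR calls. DESeq2 called 1943 transcripts (24.1%) and limma-voom 1804 (22.4%).

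The IP libraries were not used to choose the transcripts that differed in input, and give their folds in a second fraction. The IP is meant to hold RNA bound to tagged sensory neuron ribosomes, but its purity was not checked here. It held 636012 counts in uninjured and 571960 in injured samples, against 5056160 and 4754071 in input, so many transcripts had few IP counts. Of the 788 higher transcripts, 315 had at least 30 IP counts over both conditions. In these the median log2 fold with injury in the IP was 1.54 (quartiles 0.62 and 2.09), and 279 of the 315 were above 0. Of the 301 lower transcripts, 111 had enough IP counts, with a median log2 fold of -0.70 (quartiles -1.28 and -0.14) and 23 of 111 above 0. The 3073 compared but uncounted input transcripts with enough IP counts had a median of 0.01 (quartiles -0.56 and 0.60).

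By the summed rule applied to the IP, 255 of 510 higher input transcripts that could be compared there were also higher in the IP and 6 were lower. The higher ones were 50%, against 10.6% of all transcripts compared in the IP. Lower in the IP were 37 of 165 lower input transcripts, or 22.4%, against 8.53% of all. No IP count at all was found in 78 of the 788 higher transcripts and 75 of the 301 lower ones, which are 9.90% and 24.9%. Among compared but uncounted transcripts this share was 8.70%. Low IP depth limits these counts, and whether the shared differences arose in sensory neurons was not tested.

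**Figure D5:**
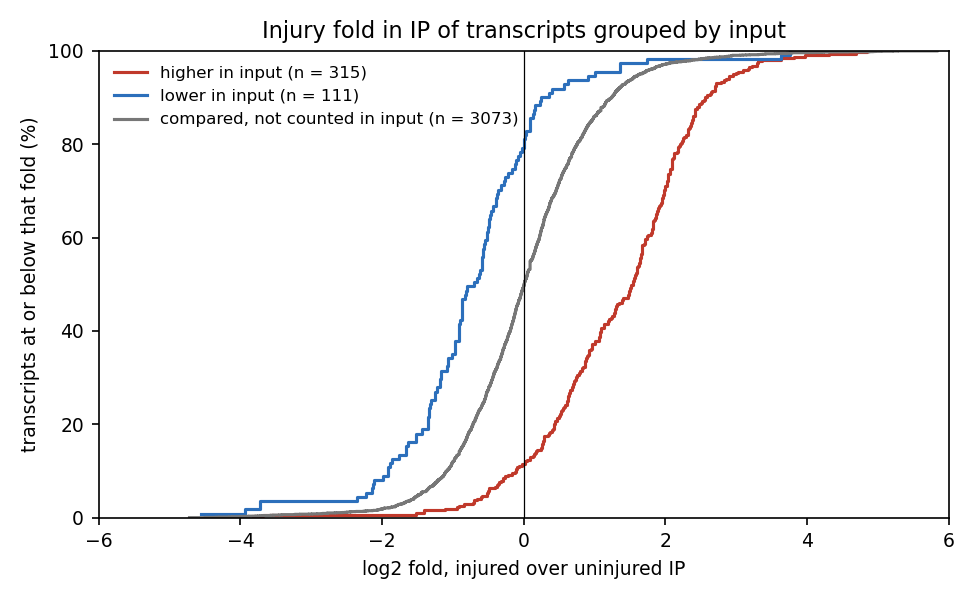
Curves give the percentage of transcripts at or below each log2 injury fold in the IP, for transcripts higher (red, n = 315), lower (blue, n = 111) or uncounted (grey, n = 3073) in input, all with at least 30 IP counts. The red curve lies to the right of 0 with a median of 1.54, the grey curve is centred at 0.01 and the blue curve lies to the left at -0.70.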

How the data were processed

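Input RNA of 3 injured and 3 uninjured samples was analysed, with the 6 IP samples used for the IP values alone. The authors deposited estimated counts per transcript, not normalized, of which 54.7% to 58.1% of the non-zero input values were not whole. Per the submitters' processing notes, minimap2, Salmon, GRCm39 and mm39 were named, but the sources used here give no roles, versions or annotation for them. Libraries were nanopore PCR-cDNA libraries, per the labels' protocols.

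Counts were summed per group and rounded. TMM factors came from edgeR 4.0.16 (R 4.3.3) on the 2 summed groups over 14437 transcripts passing filterByExpr. Folds have exact conditional (Clopper-Pearson) 95% intervals, computed with SciPy 1.17.1, which like the floor of 3 counts cover counting error alone, as PCR copies of 1 molecule may each be counted. The 3 samples of a group were said to agree within counting noise at a chi-square p over 0.01, required in both groups, and a group at 0 in all 3 counts as agreeing. Rounded counts per sample were tested with edgeR, DESeq2 1.42.0 and limma 3.58.1 (voom), with Benjamini-Hochberg adjustment over all transcripts tested. The procedure was run on simulated data in which the only changes were 4-fold. The simulated variation beyond counting noise was smaller than the 29.6% that edgeR estimated here, so the run gives no error rates for these data.

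Named were the 2 largest folds per direction with at least 100 counts and agreeing samples. Other transcripts, given without ID, were picked for abundance after their values were seen. The comparison, lists and rules were chosen with earlier results of these data known. Gene sums and gene lists, which were planned, could not be made without names.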

Additional observations from a re-analysis of the deposited data

Results flagged for a closer look

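In a few transcripts, input and IP moved in opposite directions, with every sample of a group on the same side. After injury 6 of the 510 higher input transcripts compared in the IP were at least 2-fold lower there, or 1.18%, against 8.53% of all transcripts compared in the IP. Of the 165 lower input transcripts compared there, 9 were higher in the IP, or 5.45%, against 10.6% of all. Both shares lay below those of all transcripts. The difference between the 2 fractions was not tested, and no explanation was tested.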

How the results depend on the processing

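The reported 1089 transcripts became 2413 without a CPM minimum, 389 with a minimum of 50 CPM and 279 at 4-fold or more, since these settings change how many transcripts can be counted. The share of higher ones, 72.4%, was 55.9% with library totals, 67.1% with DESeq2 size factors, 63.5% with TMM over all 4 groups, 62.8% without a CPM minimum, 86.6% with a minimum of 50 CPM, 80.3% at 4-fold or more and 77% with agreeing samples alone. At 100 CPM or more this share, 89.4%, was 79.8% with library totals, 98.1% at 4-fold or more, 93.9% with agreeing samples alone and, chosen after seeing the data, 82.0% with levels by the uninjured group. Leaving out 1 sample gave 1203 to 1229 transcripts, 68.9% to 71.9% higher, and 88.2% to 90.4% at 100 CPM or more, with a clause on overlap that fewer samples meet more easily. edgeR gave 1440 to 1483 calls without 1 sample, against 1932. No direction was reversed for the 4 named transcripts under another scaling or without 1 sample. Folds against a group at 0 were smaller without a sample of that group because the floor stayed at 3 counts. With the replicate number as a block, edgeR called 1324 transcripts, 814 higher and 510 lower. Same-numbered samples had deviations correlated at r of 0.066, 0.155 and 0.020 over 1504 transcripts, and differently numbered ones at -0.276 to 0.240, so the numbers were not taken as pairs. The median IP log2 fold was 1.52 to 1.60 for higher and -0.97 to -0.63 for lower transcripts over settings chosen after seeing the data. Gene sums and gene lists were not run. Depth limits calls at 10 to 20 CPM, where samples of the same group often differed 2-fold.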
